A study of Mus musculus with 4 samples.

Results

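Lysosomes are acidic organelles in which soluble hydrolases break down material taken up by the cell. A vacuolar-type proton pump (V-ATPase), built from a membrane sector V0 and a cytosolic sector V1, keeps the lumen acidic, and heavily glycosylated membrane proteins line the boundary and carry products out. Microglia, the resident phagocytes of the brain, use lysosomes to degrade myelin debris. TREM2 is a microglial surface receptor that binds lipids, and cuprizone is a copper chelator in the diet that injures oligodendrocytes and strips myelin.

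The genes described here are 43 named members of this machinery, taken by symbol from the 12800 genes of the count table, and all 43 were present. They comprise 9 membrane proteins, 3 soluble cofactors or progranulin, 8 glycosidases, 3 sphingolipid hydrolases, 3 sulfatases, 1 peptidase with 1 thioesterase (2 genes), and 15 proton pump genes (5 of V0, 8 of V1 and 2 accessory proteins). Cathepsins and other lysosomal genes are not members and form a separate list.

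Single-cell transcripts were counted as unique molecular identifiers (UMIs) at the 3′ end of each molecule in 4 libraries from male mice aged 12 to 14 months, all kept on their diet for 12 weeks. The groups were Trem2 +/+ on control diet, and Trem2 +/+, Trem2 +/- (heterozygous knockout) and Trem2 -/- (homozygous knockout) on a diet with 0.2% cuprizone. Each library pooled hemibrains of 2 animals after a sort for live CD11b+ CD45low cells, with 30000 sorted from each hemibrain, and there was 1 library per group. The labels give no allele and name no cell type to which the knockout is restricted, and no heterozygous or knockout library on control diet was analysed here. Values for the libraries are given below in the order wild-type control, wild-type cuprizone, heterozygous cuprizone, knockout cuprizone.

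UMIs were summed in each library over 6 of the authors' 8 clusters (01, 02, 04, 05, 06 and 08), called the pool here, and scaled to UMIs per 1000000 UMIs of the pool (CPM). The pools held 479, 663, 695 and 753 cells with 3638474, 6175520, 6552603 and 6514310 UMIs. Each of these 6 clusters held at least 50 UMIs of every one of 13 listed microglia markers. This minimum was not counted for the other clusters, so it does not set the pool apart from them. Markers of border-associated macrophages, 10 genes, summed to 369, 419, 426 and 304 CPM in the pools. Markers of cells that a CD45low gate should exclude were also present. Those of monocytes, 6 of 7 in the table, summed to 11.8, 27.4, 44.6 and 29.9 CPM, with Ly6c2 and Chil3 at 0 in the control library. Those of neutrophils summed to 0.550, 48.6, 1780 and 650 CPM in the pools, with 8 of 9 at 0 in the control library and Ly6g at 0 in the wild-type cuprizone library, and the 2 of 5 B cell markers in the table summed to 211, 26.6, 22.6 and 31.5 CPM, with Jchain at 0 in the wild-type cuprizone library. Trem2 stood at 3132, 2939, 1763 and 520 CPM, although a count at the 3′ end says nothing of a deletion elsewhere in the gene. Libraries shared 8 cell barcodes. With 1 library per group no test between groups was possible. The 95% intervals below (exact Poisson for a CPM or a share of UMIs, exact conditional binomial for a ratio, exact binomial for a share of cells) cover counting error only. A gene was called by a rule of size when its ratio passed 1.5-fold, its interval excluded 1 and both libraries together held at least 50 UMIs. The 3 cuprizone comparisons are not independent, since the wild-type cuprizone library serves in each.

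The member that differed most between libraries was Gla, which encodes alpha-galactosidase A, the enzyme that removes terminal galactose from globotriaosylceramide. Its gene lies on the minus strand of chrX:134588149-134601125 (GENCODE M21 annotation of mouse build mm10, also named GRCm38) and overlaps no other annotated gene. The 130 bases immediately upstream of that start are shown because Gla carries the largest difference among the members. The 8 letters TCACGTGA, a palindrome of the kind bound by the MiT/TFE transcription factors of lysosomal genes, occur in them at 2 places, printed in capitals. The sequence is from the RefSeq promoter table of GRCm38.p6, chrX:134601126-134601255, minus strand, 5′ to 3′.
Gla: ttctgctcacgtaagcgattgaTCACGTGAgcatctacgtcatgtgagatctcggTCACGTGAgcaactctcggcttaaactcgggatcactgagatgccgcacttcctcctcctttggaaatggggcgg

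Promoter windows, 250 bases before to 50 after a RefSeq start on GRCm38.p6, were at hand for 38 of the 43 members. The other members are Asah1, Atp6v1b2, Atp6v1c1, Atp6v1g1 and Atp6v1h. The 6 letters CACGTG, which read the same on both strands, occurred in 11 of the 38 (28.9%), against 1159 of 9846 genes of the count table with a window (11.8%). All 11 also held the longer TCACGTG on one strand or the other, against 7.06% of the table's genes, and these matches contain the shorter one. The palindrome TCACGTGA was found in 6 of 38 (15.8%), against 2.26%. Members' windows had a median GC content of 56.3%, against 60.3% for the table's genes. The 11 genes were Lamp1, Mcoln1 and Cln3 among the membrane proteins, Gla, Glb1 and Naglu among the glycosidases, the sulfatase Sgsh, and the pump genes Atp6v0b, Atp6v0d1, Atp6v0e and Atp6v1a. For comparison with Gla, 30 bases around the letters are shown for 4 members with different roles, with TCACGTG or TCACGTGA in capitals and the strand of the gene. They lie at chr8:13159088-13159117 (plus) for Lamp1, chr9:114401018-114401047 (plus) for Glb1, chr4:117887348-117887377 (minus) for Atp6v0b and chr8:105566050-105566079 (minus) for Atp6v0d1.
Lamp1: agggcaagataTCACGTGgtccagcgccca
Glb1: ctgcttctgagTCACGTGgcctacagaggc
Atp6v0b: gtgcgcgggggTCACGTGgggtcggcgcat
Atp6v0d1: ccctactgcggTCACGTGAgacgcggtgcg

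Such a match describes letters in a window and is no evidence that a factor binds there. Genes with these letters did not stand far from those without them in any comparison: the median log2 ratio was 0.03 with them (11 genes) and -0.02 without (27 genes) for wild-type cuprizone over control, -0.00 and 0.00 for knockout over wild-type cuprizone, and 0.06 (11 genes) and -0.01 (26 genes) for heterozygote over wild-type cuprizone. No test was made of these differences.

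As a group, the 43 genes took nearly the same share of the transcriptome in every library. They summed to 56278, 94717, 103047 and 104514 UMIs, or 1.55%, 1.53%, 1.57% and 1.60% of all UMIs in the pools. The median cell gave 1.58%, 1.58%, 1.58% and 1.66%. In the wild-type control library the interquartile range over cells was 1.40% to 1.82%. The 5 members with the most UMIs (Psap, Laptm5, Grn, Lamp1 and Cd68) held 51.9% of the members' UMIs. Levels are compared here between libraries and clusters and not between genes, because a 3′ tag count is not scaled for how well each transcript is captured.

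The first comparison asked what chronic cuprizone did in mice with intact Trem2. On total-UMI scaling the members stayed close to their control levels: the median log2 ratio of the 43 was -0.01, against -0.11 for all 8819 genes with enough UMIs, and the ratio of summed UMIs was 0.992 (95% interval 0.981 to 1.002). Every member had at least 50 UMIs over both libraries. Of the 43, 1 (Gla) was at least 1.5-fold higher, where 2.59% of all genes were, and 1 (Atp6v1h) was at least 1.5-fold lower, where 4.44% of all genes were. At a smaller bound of 0.32 on the log2 scale, called the smaller bound below, 3 were higher (Gla, Gusb and Atp6v1a; background 4.76%) and 2 were lower (Smpd1 and Atp6v1h; background 12.1%). A ratio within 1.1-fold of 1 was found for 28 of 43 members (65.1%), against 35.3% of all genes. Counting error shrinks with abundance, and among genes with at least 500 UMIs the figures were 23 of 31 members (74.2%) and 44.8%. Scaling with TMM factors in place of total UMIs moved the median of all genes from -0.11 to 0.01 and that of the members from -0.01 to 0.11. It turned the split of all calls from 36.8% higher to 63.2% higher. On TMM scaling 19 of 43 members (44.2%) lay within 1.1-fold of 1, against 40.2% of all genes, and among genes with at least 500 UMIs the shares were 51.6% and 49.8%, so the greater evenness of the members in this comparison depends on the scaling. The log2 ratios of Psap, Naglu, Man2b1, Arsb, Tpp1 and Atp6v0b turned from below 0 to above 0, the highest being 0.11 for Man2b1.

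**Figure D1:**
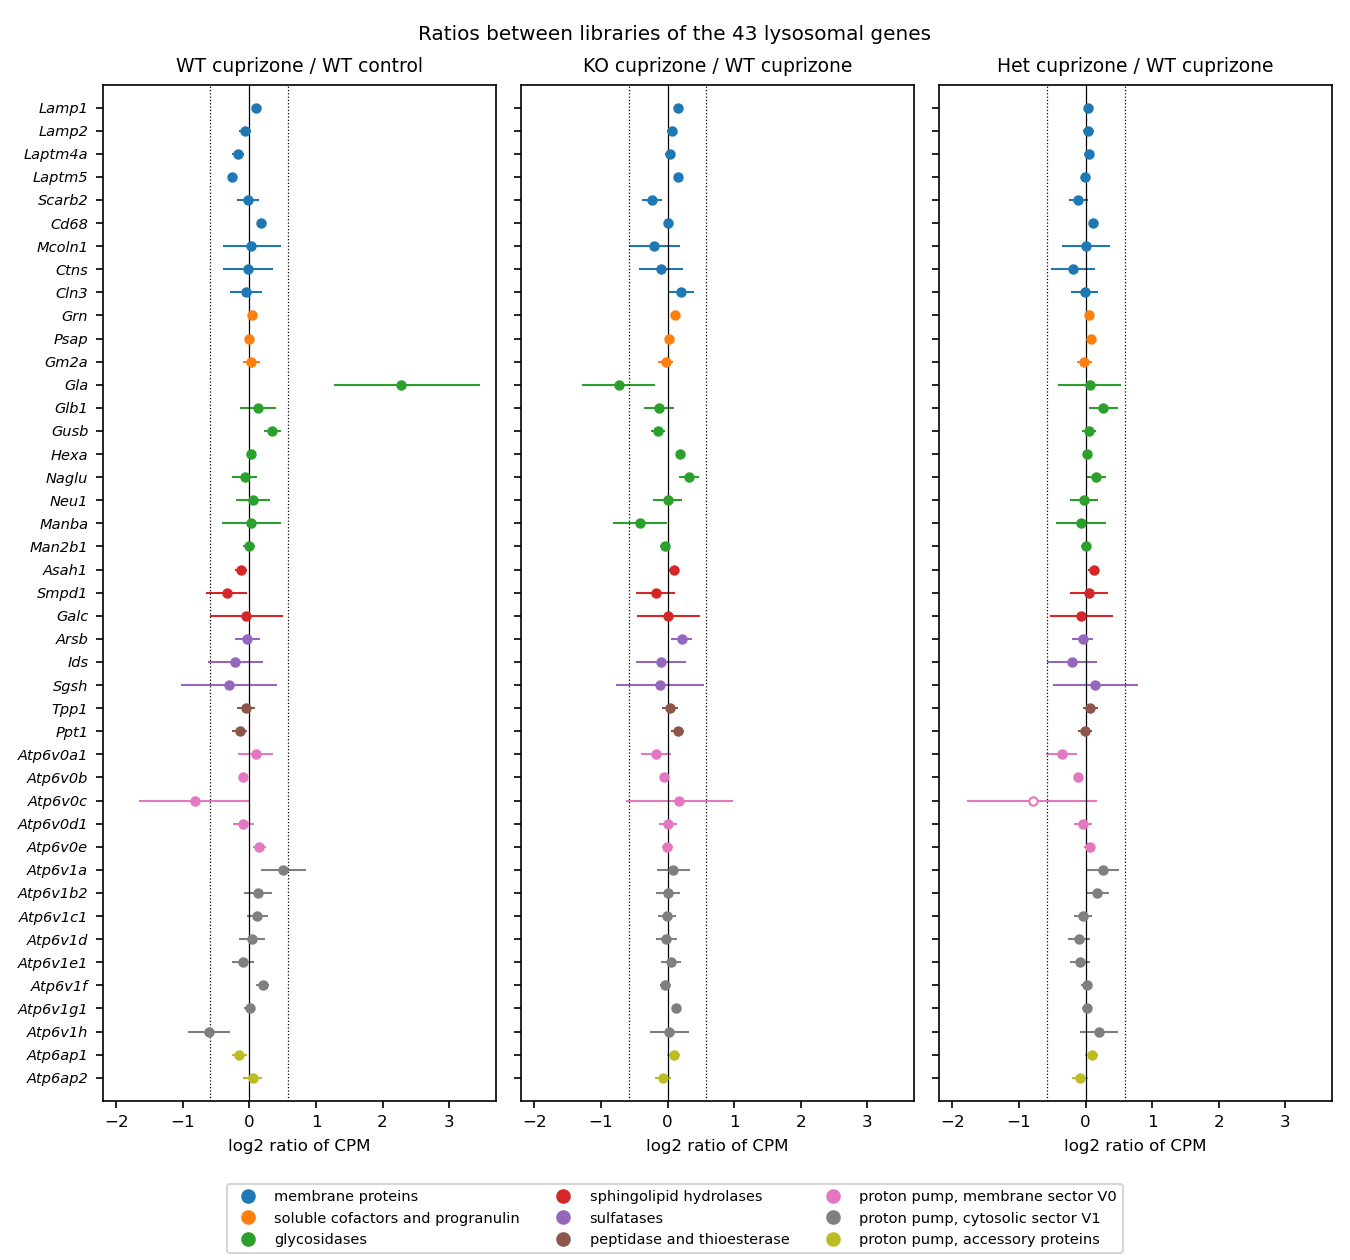
Log2 ratio of CPM for each of the 43 genes (vertical axis, coloured by role) in 3 comparisons of libraries. Bars are 95% intervals for counting error, dotted lines mark 1.5-fold, and an open circle marks a gene under 50 UMIs. Most points lie near 0, and Gla stands apart at 2.28 in the comparison of wild-type cuprizone with control.

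Of the 9 membrane proteins, none was called at either bound in that comparison. Lamp1, a major glycoprotein of the lysosomal membrane, stood at 1159, 1239, 1266 and 1376 CPM. The control library was the lowest and the knockout library the highest, and cuprizone over control in wild-type mice was 1.07 (1.03 to 1.11). Laptm5, a transmembrane protein of lysosomes in blood and immune cells, stood at 1814, 1513, 1507 and 1683 CPM. Its highest level was in the control library, and the ratio of 0.834 (0.808 to 0.861) was the lowest of the 9. Its log2 ratio was -0.26, and -0.14 on TMM scaling. Cd68, a macrophage lysosomal glycoprotein widely used as a stain for phagocytic microglia, was chosen for mention after its values were seen: it stood at 1021, 1150, 1246 and 1154 CPM, and the ratio was 1.13 (1.08 to 1.17). The other 6 were Lamp2, Laptm4a, the transport receptor Scarb2, the cation channel Mcoln1, the cystine exporter Ctns and the battenin gene Cln3. Their ratios ran from 0.888 for Laptm4a to 1.02 for Mcoln1.

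The soluble cofactors and progranulin differed little between libraries. Psap encodes the precursor of the saposins, which present sphingolipids to hydrolases, and stood at 2611, 2596, 2755 and 2646 CPM. Grn, which encodes progranulin, a glycoprotein needed for normal lysosomal function, stood at 1350, 1387, 1444 and 1504 CPM. All ratios of cuprizone over control in the group lay between 0.994 for Psap and 1.03 for Grn, with Gm2a, the activator of ganglioside GM2 breakdown, at 1.02. All 3 lay within 1.1-fold of 1 in the other comparisons too.

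Among the 8 glycosidases, Gla stood at 2.47 CPM (1.13 to 4.70), 12.0 (9.41 to 15.04), 12.5 (9.95 to 15.5) and 7.21 (5.30 to 9.59), from 9, 74, 82 and 47 UMIs. The control library was the lowest and its interval did not meet those of the others. Wild-type cuprizone over control was 4.84 (2.42 to 11.01), from few UMIs in the control library. Gusb, beta-glucuronidase, which acts on glycosaminoglycans, stood at 190, 242, 250 and 218 CPM. All 3 cuprizone libraries were above the control library, by 1.27-fold (1.16 to 1.39) in wild-type mice. Hexa, the alpha subunit of beta-hexosaminidase, stood at 1012, 1029, 1047 and 1175 CPM, and Man2b1, lysosomal alpha-mannosidase, at 446, 444, 446 and 435 CPM. Their ratios of cuprizone over control were 1.02 (0.976 to 1.06) and 0.996 (0.937 to 1.06). For Glb1 (beta-galactosidase), Naglu (alpha-N-acetylglucosaminidase), Neu1 (sialidase) and Manba (beta-mannosidase) these ratios ran from 0.952 for Naglu to 1.09 for Glb1.

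Hydrolases of sphingolipids, sulfate esters, peptides and thioesters held 1 call, at the smaller bound. Smpd1, acid sphingomyelinase, stood at 42.1, 33.2, 34.3 and 29.3 CPM, highest in the control library, with cuprizone over control at 0.789 (0.637 to 0.980). Asah1, acid ceramidase, stood at 426, 391, 424 and 416 CPM, with a ratio of 0.917 (0.860 to 0.978). The sulfatases Arsb (108, 106, 102 and 122 CPM) and Ids (23.4, 20.1, 17.4 and 18.7 CPM) act on dermatan sulfate, and Ids also acts on heparan sulfate. Ids counts were low, from 85 to 124 UMIs a library, and its ratio of 0.860 (0.647 to 1.15) had an interval that held 1. Tpp1, tripeptidyl peptidase, stood at 190, 184, 193 and 189 CPM. Ppt1, which removes palmitate from proteins, stood at 289, 262, 260 and 291 CPM, with a ratio of 0.905 (0.837 to 0.979). TMM scaling raises every ratio of this comparison, as it moved the members' median log2 ratio from -0.01 to 0.11. How far Smpd1, Asah1 and Ppt1 lay below their control levels thus depends on the scaling. Galc, which degrades the myelin lipid galactosylceramide, and the sulfatase Sgsh had at most 82 UMIs in a library and intervals that held 1 in all 3 comparisons.

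The 15 proton pump genes summed to 3189, 3208, 3169 and 3230 CPM, which is cuprizone over control of 1.01 (0.983 to 1.03) in wild-type mice. Under this level sum, the cytosolic sector held genes at both ends. Atp6v1a, the catalytic subunit that hydrolyses ATP, stood at 28.9, 41.0, 49.1 and 43.6 CPM, lowest in the control library, with a ratio of 1.42 (1.13 to 1.80). Its log2 ratio of 0.51 became -0.03 with equal weight for each cluster. That weighting counts cluster 04 of the control library, with 5 Atp6v1a UMIs in 6 cells, as much as any other cluster. Atp6v1h, a regulatory subunit, stood at 44.8, 29.5, 33.9 and 30.1 CPM, highest in the control library, with a ratio of 0.658 (0.530 to 0.818). Atp6v1h lies on the opposite strand of an overlapping gene, Rgs20, in the annotation. The log2 ratio of Atp6v1h was -0.60, close to the bound of -0.58, and it was no longer called under 5 of the alternatives, with values from -0.58 to -0.41. Atp6v1g1, of the stalk that holds the sectors together, stood at 517, 519, 526 and 570 CPM, and Atp6v1f at 345, 397, 402 and 387 CPM with a ratio of 1.15 (1.07 to 1.23). The other V1 genes (Atp6v1b2, Atp6v1c1, Atp6v1d and Atp6v1e1) lay between 0.936 and 1.09.

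In the membrane sector, Atp6v0b, of the proton-conducting ring, stood at 823, 774, 713 and 744 CPM and was highest in the control library, with a ratio of 0.940 (0.898 to 0.985). Its log2 ratio was -0.09, and 0.03 on TMM scaling. Atp6v0e stood at 331, 368, 384 and 367 CPM (1.11, 1.03 to 1.19). Atp6v0a1, the large V0 subunit through which protons pass, stood at 51.4, 54.9, 42.9 and 48.5 CPM (1.07, 0.891 to 1.28), and Atp6v0d1, which couples the sectors, had a ratio of 0.937. Atp6v0c, of the ring, is uncertain: the last 300 bases of its transcript were identical to those of the pseudogene Atp6v0c-ps2 (100%), so that reads may be split between them, and its 27, 26, 16 and 31 UMIs say little. It was the 1 member with such a copy. The accessory proteins Atp6ap1 (280, 252, 269 and 269 CPM) and Atp6ap2 (177, 183, 173 and 175 CPM) had ratios of 0.900 (0.831 to 0.975) and 1.03 (0.937 to 1.14).

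**Figure D2:**
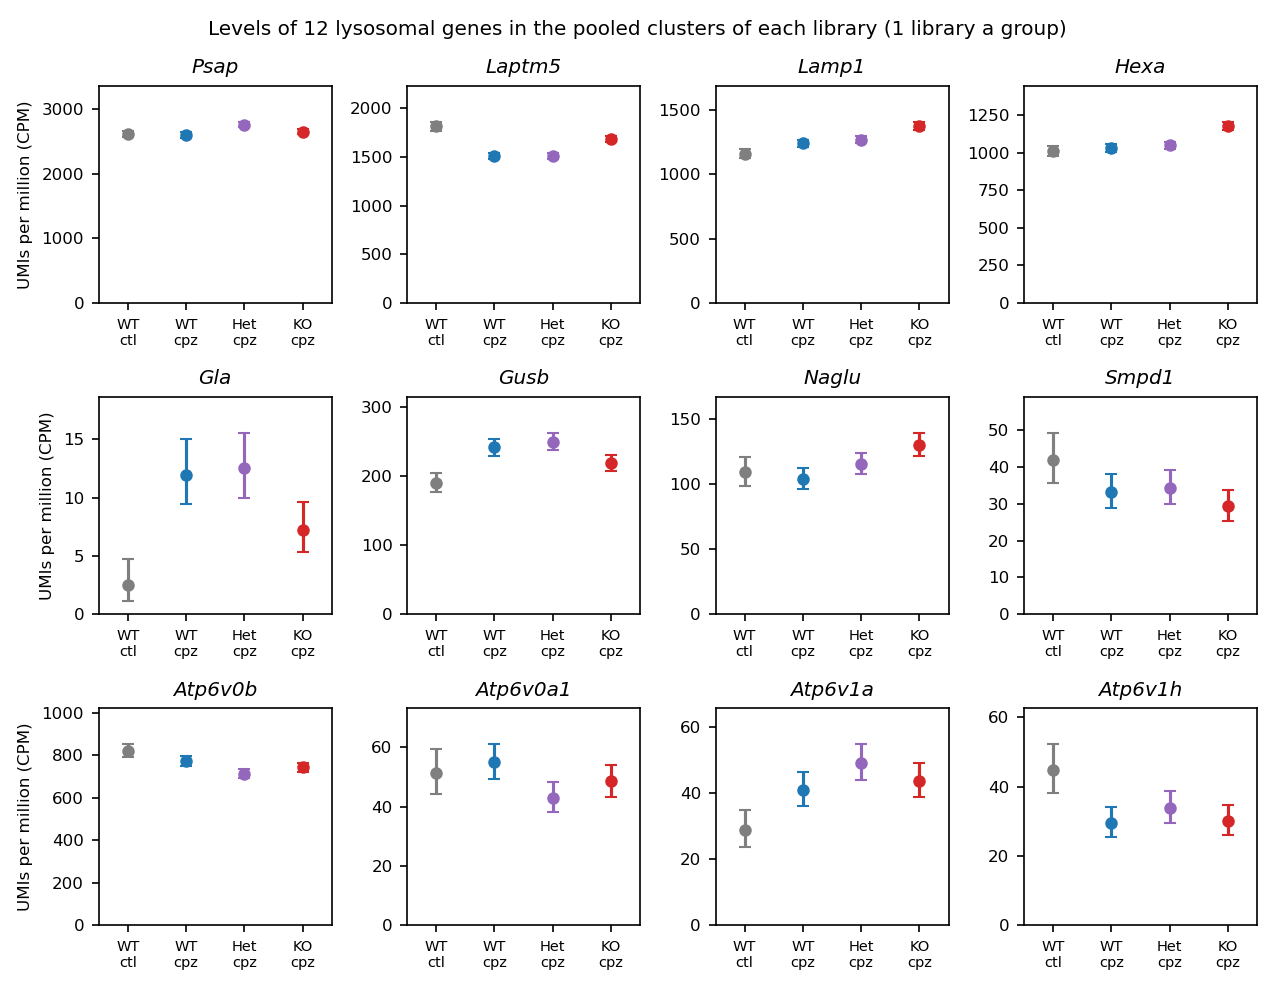
CPM of 12 of the genes (vertical axes, from 0) in the pooled clusters of each library (ctl, control diet; cpz, cuprizone), with exact Poisson 95% intervals for counting error. Gla is lowest in the control library at 2.47 CPM, Atp6v1h is highest there at 44.8 CPM, and Psap and Atp6v0b vary little.

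The second comparison asked what loss of Trem2 changed under cuprizone. Again the members stayed close: the median log2 ratio of knockout over wild-type cuprizone was 0.01, against -0.00 for 9189 genes, and the ratio of summed UMIs was 1.05 (1.04 to 1.06). Of 43 members, 0 were at least 1.5-fold higher (background 1.64%) and 1, Gla, was lower (background 3.86%). At the smaller bound, Naglu was higher (background 4.49%) and Gla and Manba were lower (background 7.0%). A ratio within 1.1-fold of 1 was found for 28 members (65.1%), against 45.7% of all genes, and among genes with at least 500 UMIs the shares were 69.7% and 62.4%. The excess in the sum came from genes outside the pump, whose summed ratio was 1.06 (1.05 to 1.07), while that of the 15 pump genes was 1.01 (0.988 to 1.03).

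Gla had a knockout over wild-type ratio of 0.602 (0.409 to 0.880). Naglu, which removes N-acetylglucosamine from heparan sulfate, stood at 109, 104, 116 and 130 CPM, highest in the knockout library, with a ratio of 1.252 (1.13 to 1.39). Manba, outside the rule for named genes and mentioned after its values were seen, stood at 19.2, 19.6, 18.6 and 14.7 CPM (0.752, 0.569 to 0.991). Intervals above 1 were found for 10 members, which included Naglu and, with smaller differences, Hexa (1.14, 1.105 to 1.18), Lamp1 (1.11, 1.08 to 1.14), Laptm5 (1.11, 1.08 to 1.14), Ppt1 (1.11, 1.04 to 1.19), Atp6v1g1 (1.097, 1.05 to 1.15) and Grn (1.08, 1.05 to 1.12). Intervals below 1 were found for 4 members, which were Gla, Manba, Gusb (0.904, 0.840 to 0.972) and Scarb2 (0.854, 0.771 to 0.946). Of all 9189 genes, 874 had intervals above 1 and 972 below. An interval narrows with abundance. Among genes with at least 500 UMIs, 526 of 3137 lay above and 458 below, against 10 and 2 of 33 members. The log2 ratio of Gusb was -0.15, and 0.03 without cluster 04. Arsb was at 1.16 (1.04 to 1.29). These intervals do not include differences between animals, and all of these ratios other than those of Gla, Naglu and Manba were within the smaller bound.

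The third comparison asked what loss of 1 Trem2 copy changed. Of the 43 genes, 42 had at least 50 UMIs over the heterozygous and wild-type cuprizone libraries, Atp6v0c being the exception. Neither direction held a member at 1.5-fold, 0 higher (background 1.32%) and 0 lower (background 1.17%). At the smaller bound 0 were higher (background 2.81%) and 1 was lower (background 2.84%), Atp6v0a1 at 0.781 (0.665 to 0.918). The median log2 ratio was 0.02, against -0.01 for 9248 genes, and the summed ratio was 1.03 (1.02 to 1.03). Gla was at 1.04 (0.753 to 1.45), with an interval that reaches from lower to higher levels. Atp6v1a was at 1.199 (1.01 to 1.42) and Glb1 at 1.204 (1.04 to 1.40), the highest ratios of this comparison. Within 1.1-fold of 1 lay 33 of 42 members (78.6%), against 54.9% of all genes, and among genes with at least 500 UMIs the shares were 84.8% and 77.1%.

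Levels were also compared between clusters. The wild-type and heterozygous cuprizone libraries fill all 6 clusters of the pool, and in them the median member was 1.58 and 1.65 times as high in its highest cluster as in its lowest. A highest over lowest of 6 sums is widened by counting error, so it cannot be set against a ratio of 2 libraries. For cluster 04 over clusters 05 and 06 together, the median log2 ratio of the members was 0.02 in each of these libraries. Of the 43 members, 19 were among the 4895 genes that entered the authors' clustering, so levels by cluster are given as a description. The summed share of the 43 genes was lowest in cluster 02 in each library (1.40%, 1.38%, 1.38% and 1.47%) and was 1.86%, 1.77%, 1.77% and 1.88% in cluster 06. Cells of cluster 02 were the deepest, with medians of 18462, 18452, 17848 and 14872 UMIs, against 3392, 3726, 3730 and 3385 in cluster 06. Cluster 01 was as shallow, at a median of 3387 UMIs over all libraries against 3541 in cluster 06, but had a share of 1.57% against 1.82%, and cluster 08, at 5817 UMIs, had 1.78%. The part of depth in these differences was not tested. Cluster 04, at 10796 UMIs per median cell in the wild-type cuprizone library, had a share of 1.68% there and 1.75% in the heterozygous library, and cluster 05, at 6979 UMIs, had 1.56% and 1.60%.

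**Figure D3:**
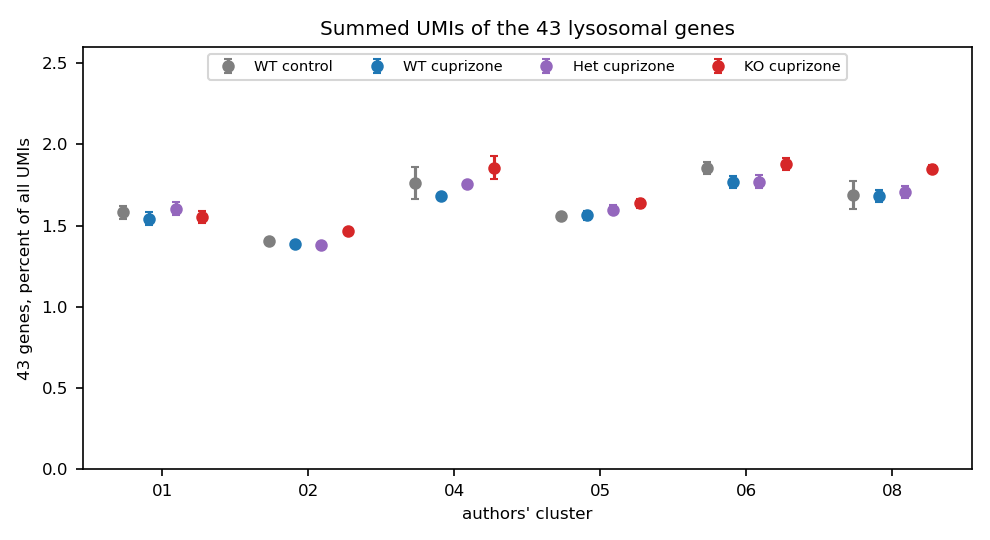
Summed UMIs of the 43 genes as a percent of all UMIs (vertical axis, from 0), by authors' cluster and library, with exact Poisson 95% intervals for counting error. Cluster 02 is lowest, between 1.38% and 1.47%, and in cluster 08 the knockout library lies above the others at 1.85%.

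The size of cluster 04 differed widely between libraries. It held 6 of 479, 122 of 663, 150 of 695 and 13 of 753 pool cells, so that 18.4% and 21.6% of the wild-type and heterozygous cuprizone pools belonged to it and 1.73% of the knockout pool. Cluster 08 differed as well, with 2.71%, 11.5%, 11.1% and 23.2% of the pool. Against clusters 05 and 06 together, which hold many cells in every library, 37 members in the wild-type cuprizone library and 39 in the heterozygous library had at least 50 UMIs. At 1.5-fold, 3 and 4 of them were higher in cluster 04 (background 6.62% and 5.99%), and 1 and 3 were lower (background 20.8% and 24.2%). At the smaller bound, 7 and 8 were higher (background 10.5% and 9.92%), and 3 and 4 were lower (background 27.7% and 31.8%).

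Gla had the largest ratio between these clusters, at 34.8 CPM in cluster 04 (25.8 to 46.0) of the wild-type cuprizone library, 10.8 times its level in clusters 05 and 06 (3.97 to 41.3), and at 33.7 CPM (25.7 to 43.3) in the heterozygous library. Cd68 stood at 1701 CPM in cluster 04 and 1096 in clusters 05 and 06 of the wild-type cuprizone library, a ratio of 1.55 (1.45 to 1.66), and at 1780 and 1124 in the heterozygous library, a ratio of 1.58 (1.49 to 1.69). Atp6v1a had ratios of 1.70 (1.15 to 2.56) and 1.87 (1.34 to 2.64). These 3 genes, with Gusb, Atp6v1b2, Atp6v1f and Atp6v0e, passed the smaller bound in both libraries, and Glb1 did in the heterozygous library (1.71, 1.29 to 2.27). Of the pump genes that did, Atp6v1f (1.43, 1.26 to 1.62 and 1.26, 1.13 to 1.42) and Atp6v0e (1.33, 1.17 to 1.51 and 1.41, 1.254 to 1.60) did not enter the authors' clustering. Gla, Cd68, Gusb, Atp6v1a and Atp6v1b2 did enter it. The clusters were made from these same cells, so all these contrasts are a description only, also those of genes that did not enter the clustering.

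Laptm5 went the other way. It stood at 1264 CPM in cluster 04 and 1897 in clusters 05 and 06 of the wild-type cuprizone library, a ratio of 0.666 (0.626 to 0.709), and its ratio was 0.692 (0.654 to 0.733) in the heterozygous library. Cluster 04 held the lowest Laptm5 level of the 6 clusters in both. Laptm4a (0.745) and Asah1 (0.775) were also lower in the wild-type cuprizone library, and Smpd1 (0.644), Arsb (0.621) and Atp6v1h (0.627) in the heterozygous library. Of these genes, Laptm5, Laptm4a and Arsb entered the authors' clustering. Whether these contrasts differ between the libraries was not tested.

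**Figure D4:**
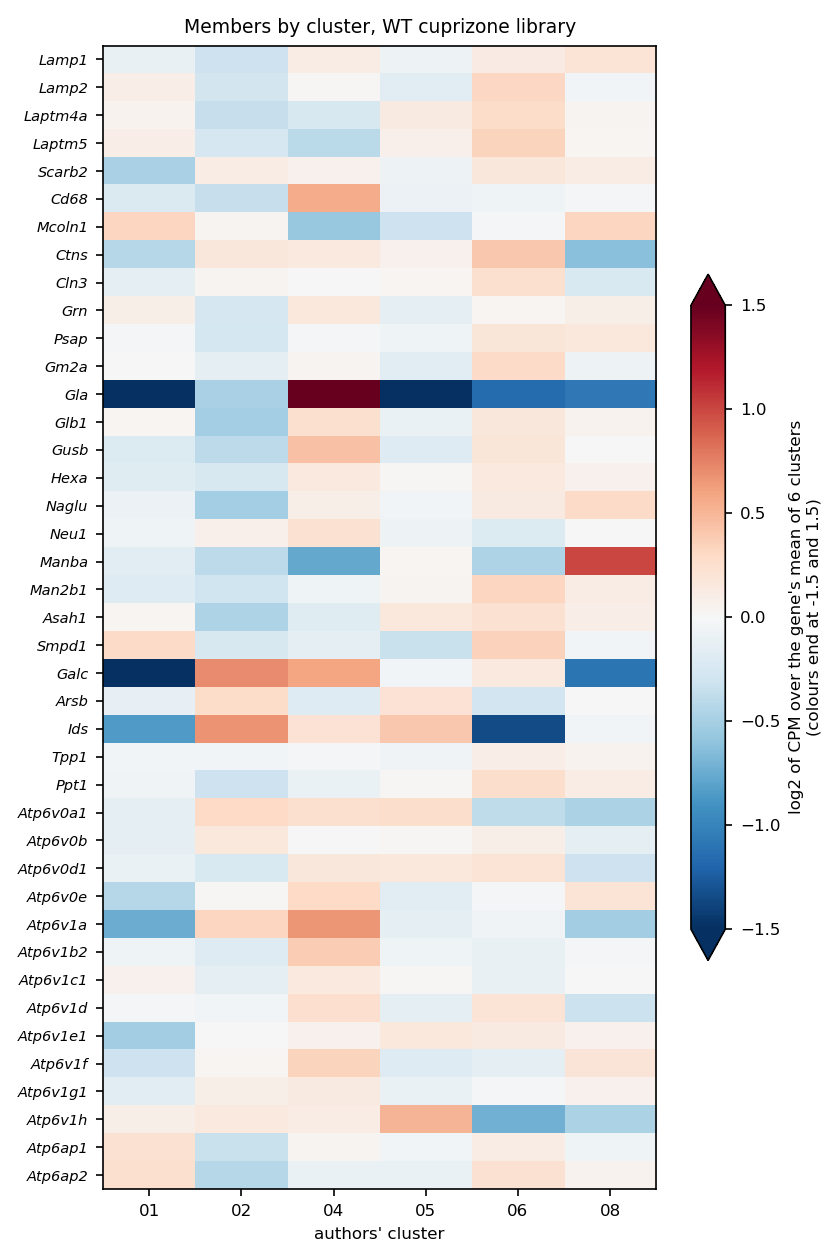
Log2 of CPM over the gene's mean of 6 clusters (colour, ending at 1.5 in either direction) for 41 members with at least 50 UMIs in the pool of the wild-type cuprizone library, by authors' cluster; a cluster with 0 UMIs is drawn at 3 UMIs. Gla and Cd68 are highest in cluster 04 and Laptm5 is lowest there, while genes of few UMIs such as Galc and Ids vary with counting error.

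Most Gla UMIs of the wild-type and heterozygous cuprizone libraries came from cluster 04. It gave 1 of 9, 49 of 74, 60 of 82 and 8 of 47 Gla UMIs, or 11.1%, 66.2%, 73.2% and 17.02%. Within cluster 04, Gla stood at 14.7, 34.8, 33.7 and 56.1 CPM, from 1, 49, 60 and 8 UMIs. Knockout over wild-type cuprizone within it was 1.61 (0.658 to 3.43) and heterozygote over wild-type 0.967 (0.652 to 1.44), both with intervals that held 1. With cluster 04 left out, the log2 ratio of Gla for knockout over wild-type cuprizone changed sign from -0.73 to 0.22, and with equal weight for each cluster it was 0.63. The first leaves out 49 of the 74 wild-type UMIs. The second gives the 8 knockout UMIs of cluster 04, from 13 cells, the part of a full cluster. No interval is given for either value, and neither is read as a higher level in the knockout library. For wild-type cuprizone over control, the log2 ratio of 2.28 was 1.23 without cluster 04 and 0.71 with equal weights, and it was not called in either case. The control and knockout libraries both held few cluster 04 cells and differ in both diet and genotype. Gla stood there at 2.47 and 7.21 CPM, from 9 and 47 UMIs, with intervals that did not meet. Cluster 08 made up 2.71% and 23.2% of these 2 pools. The part of cluster sizes in this difference was not tested. In sums over a pool, fewer cells of a kind and less RNA per cell cannot be told apart.

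Gla was also counted per cell, and since it entered the authors' clustering its shares by cluster are a description. A Gla UMI was seen in 1.88% of control cells, 8.45% of wild-type cuprizone, 9.06% of heterozygous and 5.44% of knockout cells of the pool, at medians of 4717, 6588, 6849 and 6061 UMIs a cell. In cluster 04 the share was 27.0% (19.4 to 35.8) of 122 wild-type cuprizone cells and 30.0% (22.8 to 38.0) of 150 heterozygous cells, against 4.25% (2.71 to 6.31) and 3.30% (1.97 to 5.17) of the other cells. Cluster 04 cells were deeper, with medians of 10796 and 10574 UMIs against 5891 and 5636. After thinning each cell to 2915 UMIs, with shallower cells left out (6 and 4 in cluster 04, 53 and 47 elsewhere), the shares were 6.90% (3.02 to 13.1) and 10.96% (6.40 to 17.2) in cluster 04, and 1.64% (0.710 to 3.20) and 0.402% (0.0487 to 1.44) elsewhere. Over the whole pool the thinned shares were 0.732%, 2.65%, 2.80% and 1.93%, near the level of 1 UMI, and no order is read from them. No cell type of these libraries is known to lack Gla, so no share from free RNA is given. No single cell carried the result, since the cell with the most Gla UMIs held 4 of 74 in the wild-type cuprizone library.

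**Figure D5:**
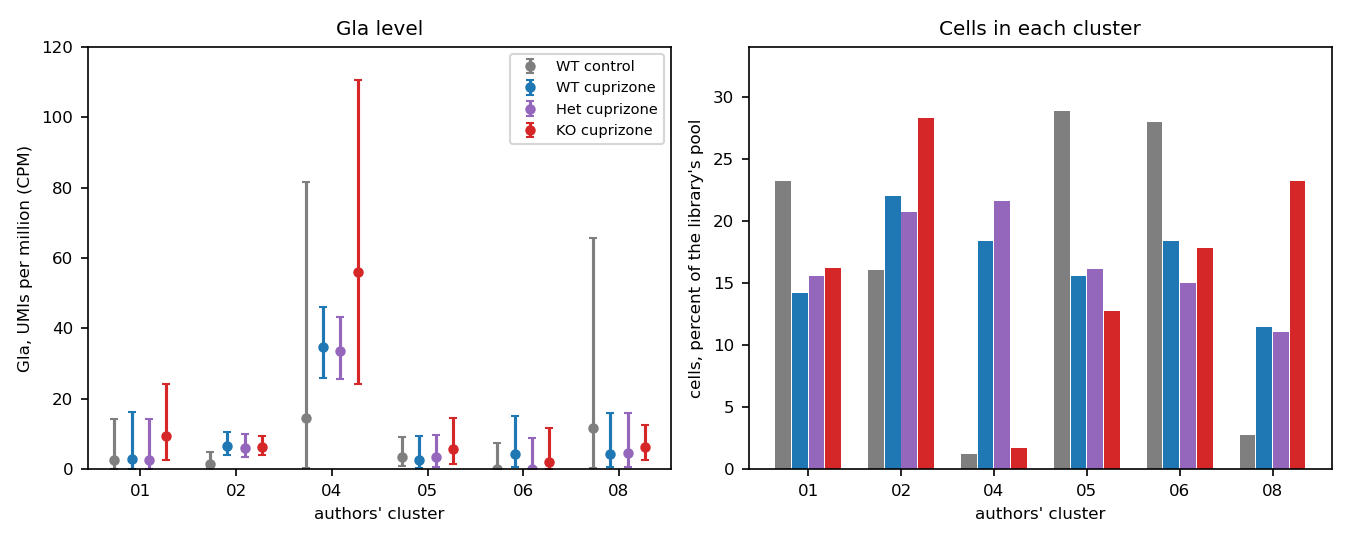
Left, Gla in CPM by authors' cluster and library, with exact Poisson 95% intervals for counting error; right, cells of each cluster as a percent of the library's pool, both from 0. Gla is at 34.8 CPM in cluster 04 of the wild-type cuprizone library, and that cluster holds 18.4% of the pool there and 1.73% in the knockout library.

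Gusb and Atp6v1a, which were also high in cluster 04, were followed within clusters. Gusb was 1.01 (0.727 to 1.39), 1.15 (0.985 to 1.34), 1.08 (0.882 to 1.33) and 1.28 (0.988 to 1.65) in clusters 01, 02, 05 and 06, which hold at least 50 cells in both libraries, for wild-type cuprizone over control, each with an interval that held 1. In cluster 08, with 13 control cells and 8 Gusb UMIs in them, it was 2.68 (1.32 to 6.36). For Atp6v1a the ratio was 1.29 (0.914 to 1.83) in cluster 02 and 1.27 (0.703 to 2.27) in cluster 05. Over the pool they were 1.27 and 1.42. Atp6v1h was at 0.715 (0.508 to 1.01) in cluster 02 and 0.944 (0.576 to 1.52) in cluster 05.

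Within the 4 clusters that hold at least 50 cells in both libraries, wild-type cuprizone over control of the summed members was 0.976 (0.940 to 1.01) in cluster 01, 0.986 (0.969 to 1.002) in cluster 02, 1.005 (0.981 to 1.03) in cluster 05 and 0.952 (0.924 to 0.981) in cluster 06. Higher at the smaller bound were 1 of 40 members in cluster 02 (Cln3 at 1.38, 1.03 to 1.86; background 2.54%), 1 of 31 in cluster 06 (Lamp2 at 1.28, 1.06 to 1.55; background 4.57%), and 0 of 28 and 0 of 35 in clusters 01 and 05 (background 2.55% and 2.88%). In the order 01, 02, 05 and 06, 0 members were lower in each (background 3.92%, 6.7%, 3.66% and 3.23%). These sums were thus within 1.1-fold of the control in each of the 4.

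Knockout over wild-type cuprizone of the sum was 1.01 (0.969 to 1.04) in cluster 01, 1.06 (1.05 to 1.08) in cluster 02, 1.05 (1.02 to 1.07) in cluster 05, 1.06 (1.03 to 1.096) in cluster 06 and 1.099 (1.07 to 1.13) in cluster 08. Cluster 08 held 76 wild-type cuprizone and 175 knockout cells. Of 34 members with enough UMIs there, 4 were higher in the knockout library at the smaller bound (background 4.51%): Cd68 (1.34, 1.22 to 1.48), Hexa (1.35, 1.23 to 1.497), Cln3 (1.66, 1.06 to 2.70) and Atp6v0d1 (1.36, 1.001 to 1.88). Atp6ap2 was lower (0.773, 0.605 to 0.994; background 6.71%). Cd68 stood at 1083, 1140, 1311 and 1531 CPM in cluster 08 and Hexa at 1130, 1118, 1127 and 1515 CPM, with the knockout library highest for both. Over the pool, without cluster 08, the summed ratio was 1.02. Naglu had ratios above 1 in each of these clusters, from 1.14 (0.860 to 1.54) in cluster 08 to 1.42 (1.01 to 2.01) in cluster 06, and passed the smaller bound in clusters 02 (1.36, 1.15 to 1.61; background 4.28%) and 06 (background 2.84%). Also higher was Atp6v1g1 in cluster 06 (1.33, 1.12 to 1.58). Lower were Mcoln1 in cluster 02 (0.674, 0.454 to 0.997; background 6.03%), Scarb2 in clusters 05 (0.710, 0.503 to 0.997; background 4.29%) and 06 (0.617, 0.408 to 0.924; background 6.07%), and Gm2a in cluster 06 (0.756, 0.574 to 0.993). Cluster 01 held 0 calls of 29 members in either direction (background 4.48% and 4.08%), and cluster 05 held 0 higher of 34 (background 3.01%). Members found in these within-cluster counts by their calls alone were named after their values were seen.

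The other lysosomal genes, 78 of the 85 listed, were set beside the members. Of 71 with enough UMIs, 4 were at least 1.5-fold higher in wild-type cuprizone than in control, with the same backgrounds as above: Gpnmb, a transmembrane glycoprotein found in lipid-loaded macrophages, at 10.1 (5.21 to 22.6), Galns, a sulfatase, at 2.71 (1.53 to 5.10), the ion channel Tpcn2 at 1.92 (1.13 to 3.40) and the tetraspanin Cd63 at 1.53 (1.47 to 1.59). The transporters Mfsd8 (0.589, 0.355 to 0.977) and Slc17a5 (0.636, 0.471 to 0.858) were lower. Gpnmb stood at 2.47, 25.1, 46.4 and 16.0 CPM and Galns at 4.12, 11.2, 11.9 and 7.37 CPM, each lowest in the control library. For knockout over wild-type cuprizone, 0 of 71 were higher and 3 were lower, which were Gpnmb (0.636, 0.491 to 0.821), Slc11a1, a metal ion transporter (0.656, 0.597 to 0.721), and Galns (0.659, 0.446 to 0.967). For heterozygote over wild-type, 2 of 72 were higher, Gpnmb (1.85, 1.52 to 2.26) and the pump subunit Atp6v0d2 (1.93, 1.11 to 3.48), and 0 were lower. Of 11 genes for cathepsins and legumain, 0 passed 1.5-fold in any comparison. At the smaller bound, Ctsb was higher in wild-type cuprizone (3777 CPM) than in control (2928 CPM, background 4.76%). Ctsc (524 and 375 CPM) and Ctsh (1093 and 796 CPM) were lower in knockout than in wild-type cuprizone (background 7.0%). For heterozygote over wild-type cuprizone 0 passed it. These 3 genes were named after their values were seen. The transcription factors Tfeb (44.8, 37.1, 36.2 and 41.6 CPM), Tfe3 (115, 92.5, 91.4 and 91.5 CPM) and Mitf (21.7, 23.5, 22.4 and 21.3 CPM) were not called in any comparison at either bound.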

How the data were processed

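The deposited values are raw UMI counts for each gene in each cell. The submitters' processing notes name Cell Ranger 2.1.1 and build mm10. The authors removed low-quality cells and combined 4 libraries, per the notes deposited with the files, leaving 12800 genes and 3023 cells, with library and cluster given for each cell. For the gene annotation and the clustering parameters, nothing is stated in the sources used here.

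Counts were summed per library over clusters 01, 02, 04, 05, 06 and 08 and scaled to 1000000. Cluster 03 (neutrophil and choroid plexus markers) and cluster 07 (border macrophage markers) were left out. Genes with 0 UMIs were set to a floor of 3 UMIs for ratios. No doublet caller was run. The pool without the deepest 5% of cells and without cluster 02, the deepest, were alternatives. Further alternatives were edgeR 4.0.16 TMM scaling, every deposited cell, no cluster 08, equal cluster weights, per-cell means, a minimum of 10 UMIs and a bound of 0.32 on the log2 scale. Leaving out cluster 04 was added after seeing the data. Near-identical copies were sought in GENCODE M21 transcripts by their last 300 bases.

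Members and lists were chosen with earlier results of these data known. Members named with values are those called, up to 3 per role at that smaller bound, and the 2 with most UMIs per role. Of other lysosomal genes up to 6 called per comparison are named. Analyses used Python 3.11.15, scipy 1.17.1 and R 4.3.3.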

Additional observations from a re-analysis of the deposited data

How the results depend on the processing

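Across the alternatives, 583 of 648 values for single genes kept their call or stayed within counting error, 52 uncalled values moved by more, 3 were called only under an alternative, 8 lost their call and 2 called values changed sign. Of the 583, 544 also kept their sign. Already counted in these groups are 57 uncalled values that changed sign, the widest being Atp6v1a for wild-type cuprizone over control (0.51 to -0.03 with equal weights). Equal weights give a full part to cluster 04 of the control library, which held 5 Atp6v1a UMIs. The called values that changed sign are those of Gla for knockout over wild-type cuprizone, at 0.63 with equal cluster weights and 0.22 without cluster 04. Both rest on few UMIs and are not read as a higher level in the knockout library. For wild-type cuprizone over control, the count of higher members was 2 (Gla and Atp6v1a) with TMM scaling and without cluster 02, 0 with equal weights and without cluster 04, and 3 at the smaller bound. Without cluster 04, Gla fell under the minimum of 50 UMIs and could not be called. The count of lower members was 0 with TMM scaling, without cluster 08 and without the deepest 5% of cells, and 2 at the smaller bound. With every deposited cell and with equal weights it was 1, but the member was Atp6v0c in place of Atp6v1h. The median log2 ratio was 0.11 and the summed ratio 1.08 with TMM scaling, and the summed ratio was 1.01 without cluster 02, 0.977 with equal weights and 0.966 without cluster 04. For knockout over wild-type cuprizone, 1 member was higher at the smaller bound. The count of lower members was 0 with equal weights, with per-cell means and without cluster 04, and 2 at the smaller bound. The summed ratio was 1.02 without cluster 08, 1.07 without cluster 02, 1.06 with equal weights and 1.07 without cluster 04. For heterozygote over wild-type cuprizone, 1 member was lower without cluster 02 (Ids) and at the smaller bound (Atp6v0a1), and the summed ratio was 1.01 without cluster 04. The cause of these shifts was not tested.

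Limits are those of 1 library per group: the spread between animals is unknown, group and library cannot be told apart, and intervals cover counting error only. Depth limits Gla, Sgsh, Galc and Atp6v0c most. The neutrophil, monocyte, border-associated macrophage and B cell markers that differ between pools were not traced to cells, and their part in the members' values was not tested. No paired analysis was possible because each group holds 1 library and no test between groups was run.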

Other observations

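Outside the pool, cluster 03 (66 cells over the 4 libraries) gave the members 0.656%, 0.719%, 0.782% and 0.968% of its UMIs, below every cluster of the pool in every library. Cluster 07 (367 cells) gave 1.40%, 1.41%, 1.51% and 1.47%, close to cluster 02 of the pool.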
